A study of Mus musculus with 8 samples.

Results

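The platelet granule cargo and proplatelet genes described here are 7 genes, Pf4, Ppbp, Thbs1, Srgn, Plek, Nbeal2 and Tubb1, of the 21791 genes with a symbol that entered the comparison. The genes were chosen with earlier results of these data known. Each was taken by name, through every probe whose gene name was its current or an older symbol, and all 7 were found, on 8 probes. The study used mice in which the +9.5 element of Gata2, an enhancer inside the gene of the blood stem cell transcription factor GATA2, was mutated. Parents carrying 1 mutant allele were mated, and 4 homozygous mutant embryos (labelled Gata2+9.5-/-) and 4 wild type littermates were collected at E12.5, both on the C57Bl/6J background and without any treatment. The embryos came from 2 litters, each of which gave 2 mutants and 2 wild types. Liver and brain were taken away before the cells were dissociated, so the main site of blood formation at this stage was not sampled. Magnetic beads with antibody to CD31 were used to enrich the cells, and the RNA of each single embryo was hybridised to 1 Agilent array in 1 colour (Cy3). CD31 (PECAM-1) is carried by endothelium, and also by megakaryocytes, platelets and a range of leukocytes.

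Megakaryocytes are the large blood cells from which platelets bud. Before they do so they fill alpha granules with proteins that they make or take up, and then push out long processes, the proplatelets, along bundles of microtubules. On activation, platelets fuse their granules with the surface and release chemokines, adhesive glycoproteins and growth factors at a wound. GATA factors, Ets factors and NF-E2 are the transcription factors best known for switching on the genes of this lineage.

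All 7 genes had a lower mean signal in the mutants, as did 47.6% of all features, and for 6 of them every mutant array lay below every wild type array. The chemokines Ppbp and Pf4 differed most, at 9.83-fold and 6.72-fold lower in the mutants, followed by Plek (5.52-fold), Tubb1 (3.68-fold), Srgn (2.48-fold) and Thbs1 (1.96-fold). Nbeal2 was the one gene whose groups overlapped. Mutant arrays below all wild type arrays were found for 0.532% of all 40234 features, and a difference of 1 log2 unit or more downward, which 5 of the 7 genes had, for 7.87%. None of the 7 passed an adjusted p of 0.05 in limma (Benjamini-Hochberg over all features). In that fit 0.0447% of features passed with a lower signal and 0% with a higher one. At an unadjusted p under 0.05, limma called 6 of the 7 lower, against 2.67% of all features. Because the 7 were chosen with earlier results of these data known, these shares are a reference and not a test of the set. In bulk RNA, fewer cells of a type and less RNA per cell cannot be told apart.

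The stretches around the start sites are shown because most of these genes were lower together. They are given for the genes with the largest differences and for Nbeal2, whose groups overlapped. RefSeq promoter windows (build GRCm38.p6) of 300 bases, from 250 before to 50 after the annotated start of transcription, were found for 6 of the 7 genes, all but Thbs1. Each is written 5′ to 3′ on the gene's own strand, and capitals mark a match to one of the motifs searched. The windows lie at chr5:90772185-90772484 (Pf4, plus strand), chr5:90768268-90768567 (Ppbp, plus), chr11:17008669-17008968 (Plek, minus), chr2:174450345-174450644 (Tubb1, plus) and chr9:110654112-110654411 (Nbeal2, minus).
Pf4: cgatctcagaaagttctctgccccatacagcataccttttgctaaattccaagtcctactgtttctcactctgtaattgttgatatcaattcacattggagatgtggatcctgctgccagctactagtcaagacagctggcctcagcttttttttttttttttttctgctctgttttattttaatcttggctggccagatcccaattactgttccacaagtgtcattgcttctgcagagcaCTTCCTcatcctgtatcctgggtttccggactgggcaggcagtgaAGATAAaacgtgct
Ppbp: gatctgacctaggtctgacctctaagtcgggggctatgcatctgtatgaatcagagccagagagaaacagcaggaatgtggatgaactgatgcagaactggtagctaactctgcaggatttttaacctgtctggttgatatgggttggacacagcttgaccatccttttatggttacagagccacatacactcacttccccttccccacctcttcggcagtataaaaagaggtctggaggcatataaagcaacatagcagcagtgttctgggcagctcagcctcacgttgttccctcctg
Plek: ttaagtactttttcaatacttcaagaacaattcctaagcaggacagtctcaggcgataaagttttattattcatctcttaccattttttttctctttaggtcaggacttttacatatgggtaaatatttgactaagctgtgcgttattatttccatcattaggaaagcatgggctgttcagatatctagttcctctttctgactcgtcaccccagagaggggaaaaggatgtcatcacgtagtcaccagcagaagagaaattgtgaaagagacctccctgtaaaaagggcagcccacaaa
Tubb1: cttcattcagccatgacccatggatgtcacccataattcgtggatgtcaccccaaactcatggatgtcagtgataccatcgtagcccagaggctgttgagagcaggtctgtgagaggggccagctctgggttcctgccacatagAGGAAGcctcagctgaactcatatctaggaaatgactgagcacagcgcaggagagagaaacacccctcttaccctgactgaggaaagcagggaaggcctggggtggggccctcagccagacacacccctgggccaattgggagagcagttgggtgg
Nbeal2: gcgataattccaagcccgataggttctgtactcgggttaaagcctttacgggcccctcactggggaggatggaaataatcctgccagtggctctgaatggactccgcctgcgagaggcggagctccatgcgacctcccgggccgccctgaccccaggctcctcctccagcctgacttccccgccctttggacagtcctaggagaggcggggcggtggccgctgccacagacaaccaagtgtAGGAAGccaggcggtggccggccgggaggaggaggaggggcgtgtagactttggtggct

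Both strands were searched for 4 short words bound by GATA factors, 2 bound by Ets factors and 1 bound by NF-E2 and AP-1. The GATA word AGATAA was found in 11.2% of all 32851 RefSeq windows of this length. The other GATA words were less frequent, with TGATAA in 9.05% of windows. The word AGATAG was in 8.95% of windows, and the last of the GATA words, TGATAG, was in 7.29%. Of the Ets words, AGGAAG was in 35.4% of windows, while the other, spelled CGGAAG, was in 16.9%. The NF-E2 and AP-1 word was TGAGTCA, in 5.2% of windows. Words for the same factor share their core letters, and none of the matches in these windows overlapped another.

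The Pf4 window held the first of the GATA words on the gene's strand from position 37, and the first Ets word on the opposite strand from position -9. Positions are counted from the annotated RefSeq start, and where transcription starts in these cells was not measured. Windows with at least 1 GATA word and at least 1 Ets word made up 12.6% of all. The first Ets word was also found from position -106 of Tubb1 and from position -9 of Nbeal2. One of the Srgn windows, at chr10:62527396-62527695, held the second Ets word from positions -51 and 36, and the other held no match. Ppbp and Plek had no match to these letters in their windows.

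Gata2 itself, the gene whose enhancer was mutated, was lower in all 4 mutants. Its signal, on the log2 scale relative to the 75th percentile of each array, was 2.00, 1.66, 0.89 and 1.42 in wild types 1 to 4. In mutants 1 to 4 it was -1.24, -0.15, -1.27 and -1.07. The difference was -2.42 ± 0.39 (SE, n = 4 per group), 5.36-fold lower, with adjusted p = 0.0857 in limma. An exact two-sided permutation test gave p = 0.0286, the smallest that 4 against 4 arrays can give. The permutations moved arrays across litters and did not keep the genotypes balanced within each litter. The 75th percentile of signal ran from 996 to 2481 over the arrays. Wild type 2, wild type 3 and mutant 4 had the highest positions on the first principal component, 99.8 to 159, against -128 to 23.2 for the other 5 arrays, and values without them follow those of the 7 genes. The arrays of a litter shared a slide and a scan, so litter and slide cannot be told apart. The labels give 1 embryo to each array, so the spread is between embryos. All 8 probes of the 7 genes were well above background and none was saturated on any array.

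Pf4 encodes platelet factor 4, a heparin-binding chemokine that is among the most abundant proteins of the alpha granule. Its log2 signal relative to the 75th percentile was 5.47, 4.42, 5.52 and 5.61 in wild types 1 to 4. In the mutants it was 1.67, 3.19, 2.68 and 2.50. The wild types therefore lay close together apart from wild type 2, and 1.23 log2 units still separated the lowest wild type from the highest mutant. The difference was -2.75 ± 0.42 (SE), with a 95% interval of -3.68 to -1.81, adjusted p = 0.0845 in limma and an exact permutation p of 0.0286. The mutant level was 14.9% of that of the wild types. On the linear scale the processed signal ran from 30570 to 114000 in wild types and from 3636 to 9279 in mutants.

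Ppbp encodes pro-platelet basic protein, the precursor from which beta-thromboglobulin and the neutrophil-attracting chemokine NAP-2 are cut. Its values were 2.75, 1.45, 2.30 and 2.48 in wild types 1 to 4. In the mutants they were -1.33, 0.25, -1.24 and -1.87. Mutant 2 stood above the other mutants by more than a log2 unit and was still 1.21 below the lowest wild type. The difference of -3.30 ± 0.49 (SE) had a 95% interval of -4.37 to -2.22, adjusted p = 0.0670 in limma and an exact permutation p of 0.0286. The mutants kept 10.2% of the wild type level, the lowest share among the 7 genes.

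Pf4 and Ppbp are direct neighbours on chromosome 5, among other CXC chemokine genes. The chemokine genes Cxcl5, Cxcl3 and Cxcl15, which lie beside the pair, were not well above background on enough arrays to be tested. Cxcl1 was at 0.88 in wild types and 1.27 in mutants, a difference of 0.39 ± 0.37 (SE). Cxcl2 differed by -0.56 ± 0.33 and Rassf6, on the other side of the pair, by -0.64 ± 0.42. For each of these 3 neighbours the groups overlapped and adjusted p was 0.717 in limma.

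Thbs1 encodes thrombospondin-1, a large adhesive glycoprotein of the alpha granule that endothelial cells and fibroblasts also secrete. Its values were 2.37, 1.63, 2.12 and 2.32 in wild types 1 to 4. In the mutants they were 0.72, 1.47, 1.46 and 0.93. The groups touched almost: wild type 2 lay 0.16 above mutant 2. The difference was -0.97 ± 0.34 (SE; 95% interval -1.72 to -0.21), which left 51.2% of the wild type level, with adjusted p = 0.717 in limma and an exact permutation p of 0.0286. When arrays were scaled to their median in place of the 75th percentile, the groups overlapped.

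Srgn encodes serglycin, the proteoglycan core protein that holds basic cargo such as PF4 in storage granules, in platelets as in mast cells, neutrophils and endothelial cells. Its values were 2.85, 2.38, 3.09 and 3.33 in wild types 1 to 4. In the mutants they were 1.56, 1.77, 1.89 and 1.19. The gap between the groups was 0.49 log2 units. The difference was -1.31 ± 0.34 (SE; 95% interval -2.07 to -0.55), with 40.3% of the wild type level left and adjusted p = 0.717 in limma. With scaling to the median, the Srgn groups overlapped too.

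Plek encodes pleckstrin, the major substrate of protein kinase C in platelets, which takes part in granule release. Its values were 2.63, 1.91, 2.81 and 2.78 in wild types 1 to 4. In the mutants they were -0.75, 0.55, 0.42 and 0.06. The gap of 1.36 log2 units between the lowest wild type and the highest mutant was the widest of the 7 genes. The difference was -2.46 ± 0.39 (SE; 95% interval -3.33 to -1.60), 18.1% of the wild type level, with adjusted p = 0.0857 in limma and an exact permutation p of 0.0286.

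Tubb1 encodes beta-1 tubulin, the beta tubulin of megakaryocytes that forms the bundles of the proplatelet and the marginal band of the platelet. Its values were -0.18, -0.89, 0.13 and 0.26 in wild types 1 to 4. In the mutants they were -2.57, -2.10, -2.15 and -1.38. Mutant 4 was the highest of its group and lay 0.49 below wild type 2. The difference was -1.88 ± 0.39 (SE; 95% interval -2.74 to -1.02), 27.2% of the wild type level, with adjusted p = 0.440 in limma and an exact permutation p of 0.0286.

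Nbeal2 encodes a large protein of the BEACH family that megakaryocytes need to keep cargo in their alpha granules, and its loss causes grey platelet syndrome. Its brighter probe read 0.02, -0.59, 0.00 and 0.29 in wild types 1 to 4. In the mutants it read -0.54, -0.47, -0.34 and -0.41. The mutants lay within 0.21 of each other and inside the range of the wild types, since wild type 2 was below all of them. The difference was -0.37 ± 0.32 (SE; 95% interval -1.08 to 0.34), with adjusted p = 0.717 in limma and an exact permutation p of 0.143. Without wild type 2 the difference was -0.54 ± 0.34, with adjusted p = 0.950 in limma. Wild type 2 was the only wild type below any mutant, so without it the groups could not overlap. In that setting 0.77% of all features were lower in mutants without overlap. The interval takes in the difference of Thbs1 (-0.97) and leaves out those of the other 5 genes. Whether the differences of Nbeal2 and another gene are unequal was not tested.

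The array carries a second Nbeal2 probe, and both are shown because the 2 sites differed in signal level and in the order of the arrays. Whether their genotype differences are unequal was not tested. The brighter probe lies at chr9:110527853-110527912 and the dimmer at chr9:110528239-110528298, on the minus strand of mm9 per the annotation in the files.
Nbeal2 brighter probe: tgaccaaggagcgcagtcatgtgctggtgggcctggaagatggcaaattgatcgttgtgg
Nbeal2 dimmer probe: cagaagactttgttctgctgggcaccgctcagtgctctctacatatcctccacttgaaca

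The dimmer probe read -0.66, -1.58, -0.79 and 0.08 in wild types 1 to 4. In the mutants it read -1.17, -1.50, -0.28 and -0.82. Its difference was -0.21 ± 0.42 (SE) with an exact permutation p of 0.686. Adjusted p was 0.811 in limma over the 48110 probes well above background on at least 4 arrays. The order of the arrays was not the same on the probes: mutant 3 was the highest mutant on both, while mutant 1 was the lowest on the brighter probe and mutant 2 on the dimmer.

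**Figure D1:**
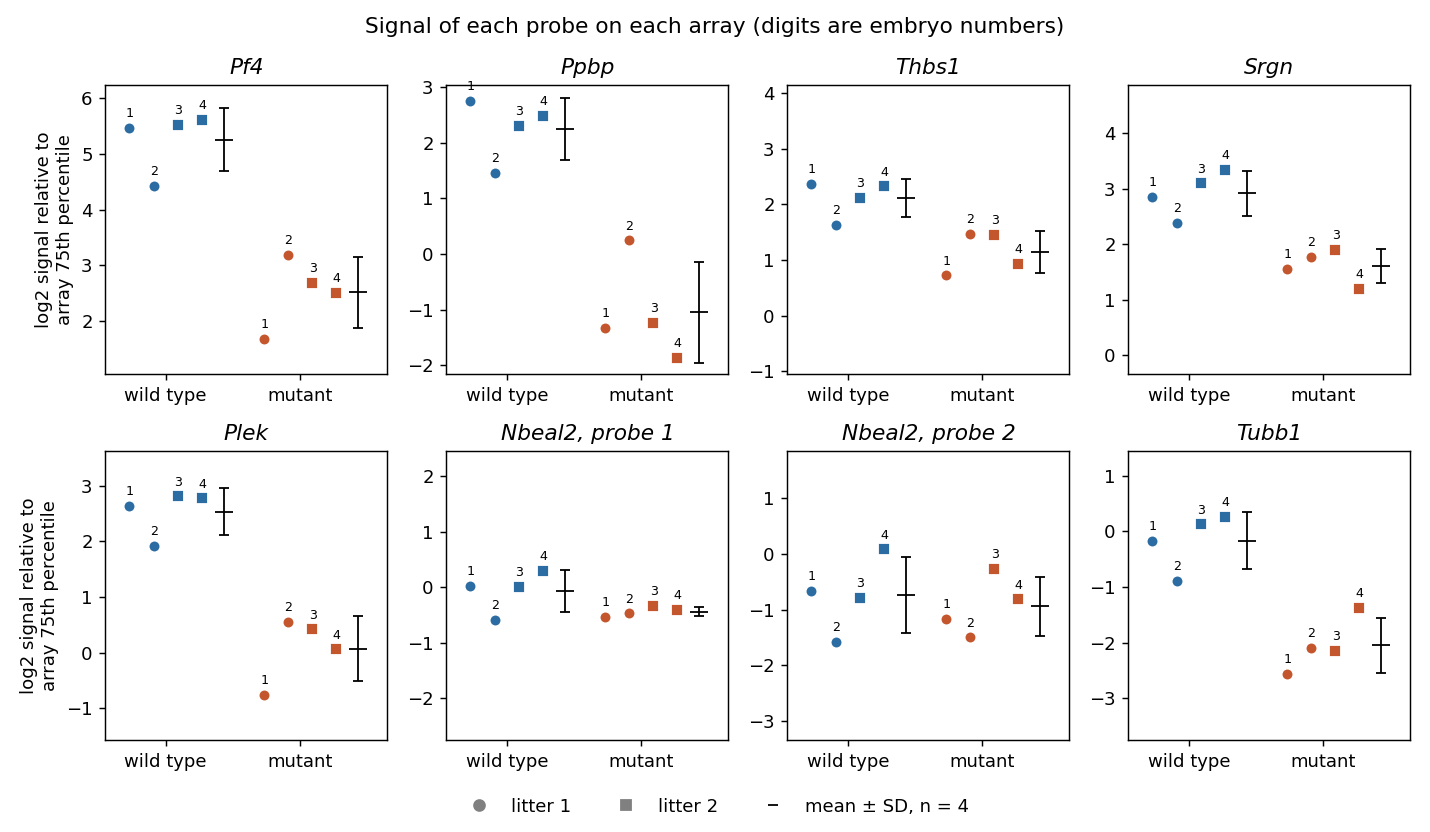
Log2 signal relative to the array's 75th percentile for each of the 8 probes (panels), with 1 point per embryo in wild types (blue) and mutants (orange), circles for litter 1, squares for litter 2, and the mean ± SD (n = 4) beside them. Every mutant point lies below every wild type point for Pf4, Ppbp, Thbs1, Srgn, Plek and Tubb1, and the groups overlap on both Nbeal2 probes.

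The order of the arrays within a genotype was partly shared by the genes. Wild type 2 was the lowest wild type for 7 of the 7 genes, with a median deviation of -0.62 from the group mean. The share of all features with wild type 2 lowest was not counted, so this cannot be called particular to the 7 genes. Mutant 1 was the lowest mutant for 5 of them and mutant 4 for the other 2, Ppbp and Srgn. Wild type 2 also had the lowest summed signal of platelet surface receptors among wild types (46.5 times the 75th percentile), of mast cell markers (8.91), neutrophil markers (10.3), macrophage markers (11.8), erythroid markers (311) and fibroblast markers (103). Of the lists, the endothelial markers were the exception, with wild type 3 the lowest (225). The part of these cells in the low values of wild type 2 was not tested.

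Without wild type 2, wild type 3 and mutant 4, the arrays highest on the first principal component, each of the 7 genes was still lower in the mutants. The differences were -3.03 for Pf4, -3.39 for Ppbp, -1.13 for Thbs1, -1.35 for Srgn and -2.63 for Plek. Those of Tubb1 and Nbeal2 were -2.31 and -0.60. With these 5 arrays the groups did not overlap for 7 of the 7 genes, and neither did they, in the same direction, for 15.3% of all features. No gene passed the adjusted threshold in limma, with unadjusted p from 0.000340 for Tubb1 to 0.0568 for Nbeal2.

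The difference was seen in each litter. In litter 1 it was -2.52 for Pf4, -2.65 for Ppbp and -2.37 for Plek, and in litter 2 it was -2.98, -3.95 and -2.56 for the same genes in that order. Tubb1 differed by -1.80 in litter 1 and -1.95 in litter 2. For Srgn the differences were -0.95 and -1.67, for Thbs1 -0.91 and -1.03, and for Nbeal2 -0.22 and -0.52. With 2 against 2 embryos, the mutants lay below the wild types without overlap for 6 of the 7 genes in litter 1, all but Nbeal2, and for 7 of the 7 in litter 2. The same was so for 25.0% of all features in litter 1 and 3.78% in litter 2. The interaction of genotype and litter was largest for Ppbp, at -1.30 ± 0.92 (SE), with an unadjusted p of 0.192 in limma. No gene of the 7 passed the adjusted threshold for the interaction, and 0% of all features did (1.22% at an unadjusted p under 0.05). Between the litters themselves, none of the 7 passed either, while 4.91% of all features did. Tubb1 came closest, at 0.65 higher in litter 2 with an unadjusted p of 0.0629 in limma, and 25.8% of all features had an unadjusted p under 0.05 between litters.

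**Figure D2:**
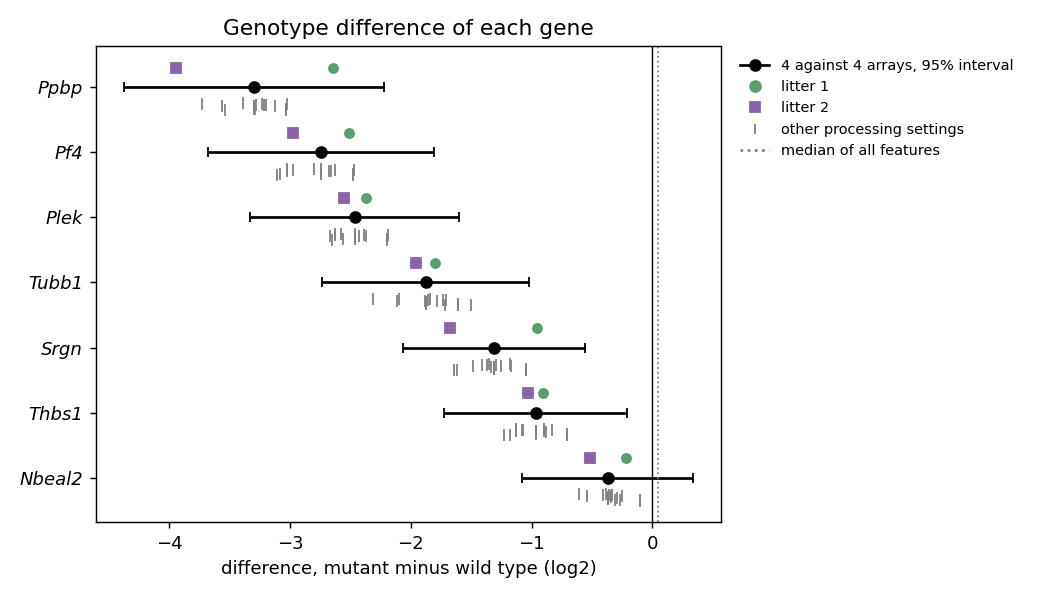
Difference between mutant and wild type mean (log2) for each of the 7 genes, with the 95% interval of the limma fit, the difference within each litter above it, grey ticks for the 20 other processing settings below it, and the median of all features (0.05) as a dotted line. The intervals of all genes but Nbeal2 lie below 0, and both litters lie below 0 for each gene.

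Some of the genes had like profiles over the 8 arrays, with the genotype difference included. Likeness was measured as the root mean square difference between 2 profiles after each was centred on its own mean, so a small value means that genes rose and dropped by the same amounts. The centring keeps the difference between the genotypes, so genes with genotype differences of like size tend to lie close together. This distance does not separate likeness between embryos of a genotype from likeness in the genotype difference. Pf4 and Plek were the closest pair of the 7, at 0.195 log2 units, followed by Thbs1 and Srgn at 0.279. Ppbp and Nbeal2 were the least alike, at 1.58. Among 21457 genes with a value on every array, Pf4 was nearest to Plek, then to Plac8 (0.297) and Rgs18 (0.335), a regulator of G-protein signalling of platelets. Plek was nearest to Pf4, and Plac8 (0.325) was also close to it. Ppbp was nearest to the platelet receptor genes Gp9 (0.225), Itgb3 (0.332) and Treml1 (0.334). Tubb1 was nearest to Tbxas1 (0.196), which encodes thromboxane synthase, then Hp (0.227). Srgn lay nearest to Smim3 (0.17), Clu (0.186) and Lrmp (0.217), and Thbs1 to Rgs10 (0.219), Zbtb16 (0.222) and Smim3 (0.229). Nbeal2 lay nearest to Pgf (0.113), Gm10387 (0.129) and Serpinb1a (0.131). The median distance to all genes was 1.62 for Pf4 and 0.609 for Nbeal2, so a small distance means less for a gene that varied little.

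**Figure D3:**
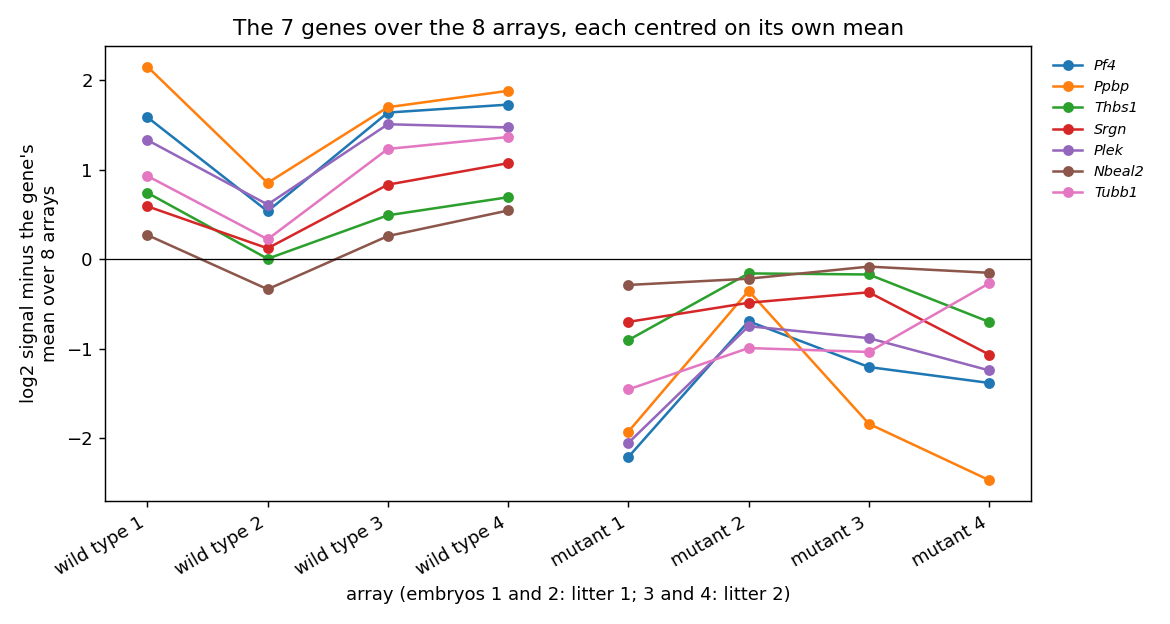
Log2 signal of each of the 7 genes on the 8 arrays, centred on the gene's mean over the arrays. Lines only join the points of a gene, and the order of embryos within a genotype has no meaning. Wild type 2 is the lowest wild type for every gene, and Pf4 and Plek run close together.

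Other genes of the granule and of platelet formation were followed in lists. In these lists the median shift of all 40234 features, 0.05, is the reference, and a list's sign near it depended on the scaling. With quantile normalization the medians of alpha granule cargo, granule assembly, granule release, proplatelet cytoskeleton and megakaryocyte transcription factors were all below 0, at -0.05, -0.04, -0.08, -0.08 and -0.14. With scaling to the array median the shift of all features was 0.32, so differences of that size in the lists have no settled direction. For the counts, the shares of all features are the reference. In limma 0.0447% passed with a lower signal and 0% with a higher one, and 2.67% had an unadjusted p under 0.05 and a lower signal. Mutants lay below wild types without overlap for 0.532%, and the mutant mean was lower for 47.6%.

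Of 20 further genes of alpha granule cargo, 0 passed the adjusted threshold in limma in either direction and 2 had an unadjusted p under 0.05, both lower. The median was 0.19, and 9 of the 20 means were lower in mutants. The brightest, Sparc and Fn1, which fibroblasts and endothelial cells also make, differed by 0.29 ± 0.39 and 0.40 ± 0.38 (SE). Vwf, the adhesive protein of platelets and endothelium, differed by -0.40 ± 0.42. Clu, named after its values were seen, was the one gene of the list without overlap, at -1.44 ± 0.34 with adjusted p = 0.717 in limma, while F5, the clotting factor V, also named after its values were seen, had a larger difference of -1.85 ± 0.58 with groups that overlapped.

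Among 19 genes that build platelet granules, 0 passed and 3 had an unadjusted p under 0.05 in limma, all lower, with a median of 0.21. The brightest were Ap3b1 and Dtnbp1, which sort cargo to lysosome-related organelles, at 0.34 ± 0.38 and 0.37 ± 0.39 (SE). The 3 without overlap, named after their values were seen, were Rab27b at -2.11 ± 0.40, Slc35d3 at -1.97 ± 0.45 and Rab27a at -0.80 ± 0.34. Rab27b encodes the small GTPase of platelet dense granules, and its adjusted p was 0.263 in limma. Slc35d3, a transporter gene of the same granules, was well above background on 2 of 4 mutant arrays. Rab27a counted as well above background on 3 of 4 wild type arrays, a count that omits any array whose spot was dropped. Vps33b, which with Nbeal2 is needed for alpha granules, differed by 0.41 ± 0.37.

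Of 14 measured genes of granule release (15 listed), 0 passed and 3 had an unadjusted p under 0.05 in limma, all lower, with a median of 0.00. Stx4a, a syntaxin of the plasma membrane, differed by 0.31 ± 0.38 (SE), and Rasgrp2, an activator of Rap1 in platelets, by 0.16 ± 0.39. The 3 without overlap, named after their values were seen, were Fermt3 (kindlin-3, which activates integrins) at -2.53 ± 0.47, Rac2 at -1.53 ± 0.50 and Stx11 at -0.92 ± 0.35. Fermt3 had an adjusted p of 0.241 in limma. All 3 are made by other blood cells as well. The 7 genes of protein kinase C and inositol phosphate signalling around pleckstrin had a median of 0.15 with 0 passing and 0 with an unadjusted p under 0.05, Arrb1 and Inpp5a being the brightest at 0.15 ± 0.37 and 0.30 ± 0.37.

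Of 18 cytoskeletal genes of proplatelet formation, 0 passed and 2 had an unadjusted p under 0.05 in limma, both lower, with a median of 0.32. Cfl1 (cofilin) and Flna (filamin A), which most cells make, differed by 0.33 ± 0.41 and 0.38 ± 0.38 (SE). Tuba8, an alpha tubulin gene, was the one without overlap, at -1.34 ± 0.38, and was named after its values were seen. The other beta tubulins lay on the other side of 0 from Tubb1 at this scaling: 0 of 7 means were lower and the median was 0.42, with Tubb5 at 0.37 ± 0.35 and Tubb6 at 0.35 ± 0.42. With quantile normalization 4 of the 7 were lower and the median was -0.01. None of the 7 passed and none had an unadjusted p under 0.05.

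Relatives of the other genes were also measured. Of the other BEACH genes 0 of 8 passed, 1 (Wdfy4, lower) had an unadjusted p under 0.05 in limma, and the median was 0.38, with Nsmaf at 0.44 ± 0.38 and Wdr81 at 0.42 ± 0.36 (SE). Of 4 other thrombospondin genes 0 passed and 0 had an unadjusted p under 0.05, with a median of 0.15, Thbs3 at 0.08 ± 0.40 and Comp at 0.12 ± 0.40. Of 10 measured CXC chemokines (13 listed) 0 passed and 0 had an unadjusted p under 0.05, with a median of 0.03, and Cxcl12, the ligand of CXCR4, was at 0.39 ± 0.35 and Cxcl11 at 0.35 ± 0.35. Of 11 enzymes that build the sugar chains of serglycin 0 passed and 0 had an unadjusted p under 0.05, with a median of 0.41, Chsy1 at 0.48 ± 0.37 and Xylt2 at 0.64 ± 0.37.

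Of the lists of platelet genes, the surface receptors were the one in which genes passed. Of 18, 3 fell in limma at the adjusted threshold, 13 did not overlap between the groups, and the median was -2.12. Of all features 0.0447% fell at that threshold and 0.532% were lower in mutants without overlap. Treml1, a receptor kept in alpha granules until activation, fell by 3.70 ± 0.43 (SE, adjusted p = 0.0231). Gp9 and Gp1ba, subunits of the von Willebrand factor receptor, fell by 3.49 ± 0.46 (adjusted p = 0.0362) and by 2.80 ± 0.39 (adjusted p = 0.0440). Itgb3, the beta subunit of the fibrinogen receptor, differed by -3.44 ± 0.52 with adjusted p = 0.0777. With litter as a block 0% of features passed (1953 at an unadjusted p under 0.05), so these calls ended there, as they did without wild type 1, 3 or 4 or mutant 1 or 3, and with quantile normalization. Ppbp sat among the receptor genes in size, and Pf4 and Plek near Gp1ba, although none of the 3 passed.

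Of 17 transcription factors of megakaryocytes, 0 passed and 2 had an unadjusted p under 0.05 in limma, both lower, Gata2 and Gata1. Gata1 was at -1.76 ± 0.41 (SE) and did not overlap between the groups. Nfe2, which drives the last steps of platelet formation, differed by -1.01 ± 0.58 with overlap. The brightest, Lmo2 and Lyl1, were at 0.62 ± 0.46 and -0.21 ± 0.38, and the median of the list was 0.16.

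**Figure D4:**
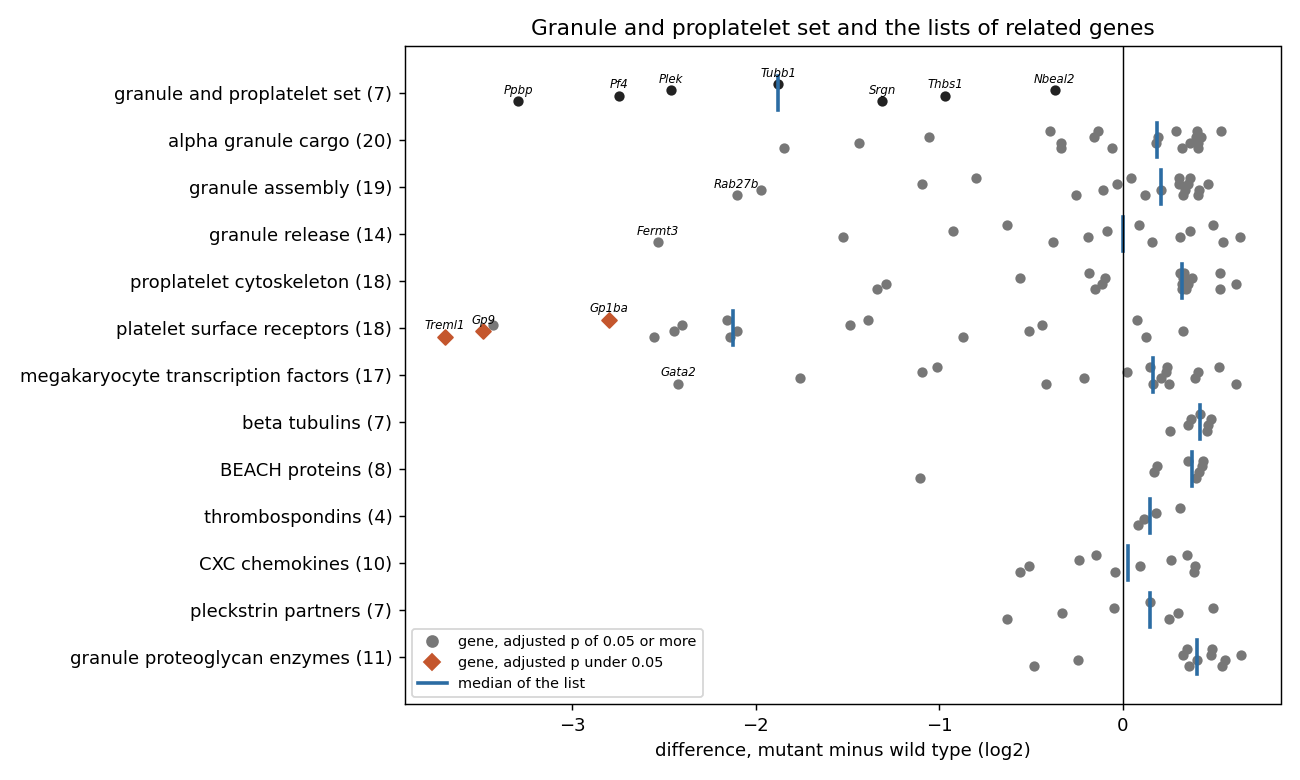
Difference between mutant and wild type (log2) for the 7 genes (top row) and for each gene of the related lists, 1 point per gene, with the number measured in brackets, the list's median as a bar, and genes past an adjusted p of 0.05 as diamonds. The medians of the 7 genes and of the platelet receptors are -1.88 and -2.12, and those of the other lists lie between 0.00 and 0.42.

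Markers of the cell types that the beads could bring down moved in part with these genes. Endothelial markers were all well above background on every array (10 of 10), with a summed signal of 225 to 731 times the 75th percentile in wild types and 273 to 647 in mutants. The summed signal of the 18 platelet receptors was 46.5 to 77 in wild types and 17.4 to 33.9 in mutants, with 17 or 18 well above background. That of 10 mast cell markers was 8.91 to 16.3 against 3.26 to 5.84, and that of 9 neutrophil markers 10.3 to 16.8 against 2.04 to 3.31. Of the 9 mast cell markers measured 1 passed, 8 means were lower and the median was -1.39, and of 9 neutrophil markers 3 passed, 7 means were lower and the median was -1.46. Of all features 0.0447% passed with a lower signal and 47.6% had a lower mean. Hdc, the histamine-forming enzyme, fell by 3.53 ± 0.42 (SE), and of the neutrophil genes S100a9 fell by 4.93 ± 0.58, Mpo fell by 4.89 ± 0.63 and S100a8, well above background on 3 of 4 mutant arrays, fell by 3.98 ± 0.52, with adjusted p from 0.0231 to 0.0340 in limma. None of these passed with litter as a block, with quantile normalization, or without wild type 1, 3 or 4 or mutant 1 or 3. Tpsb2 of mast cells and the neutrophil genes Elane and Ly6g, named after their values were seen, were at 0.12, 0.18 and 0.17. Ms4a2, the beta chain of the mast cell IgE receptor and also named after its values were seen, was not well above background on any array. Srgn is also made by mast cells and neutrophils and Plek by leukocytes, and the part of these cells in their differences was not tested.

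The summed signals of macrophage, erythroid and fibroblast markers overlapped between the genotypes. The summed signal of 10 macrophage markers was 11.8 to 31.9 in wild types and 8.82 to 28 in mutants, with Csf1r at -0.23 ± 0.51 and Cd68 at 0.13 ± 0.37 (SE). That of 8 erythroid markers was 311 to 1620 and 658 to 1620, with Hbb-y at 0.51 ± 0.47 and Hba-a1 at 0.38 ± 0.52. Of the 8, Epor, the erythropoietin receptor gene, named after its values were seen, did not overlap, at -0.65 with adjusted p = 0.717 in limma. That of 8 fibroblast markers was 103 to 361 and 146 to 349, with Col1a2 at 0.17 ± 0.46 and Col3a1 at 0.41 ± 0.43. The endothelial genes Egfl7 and Cldn5 were at 0.14 ± 0.47 and -0.04 ± 0.37.

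**Figure D5:**
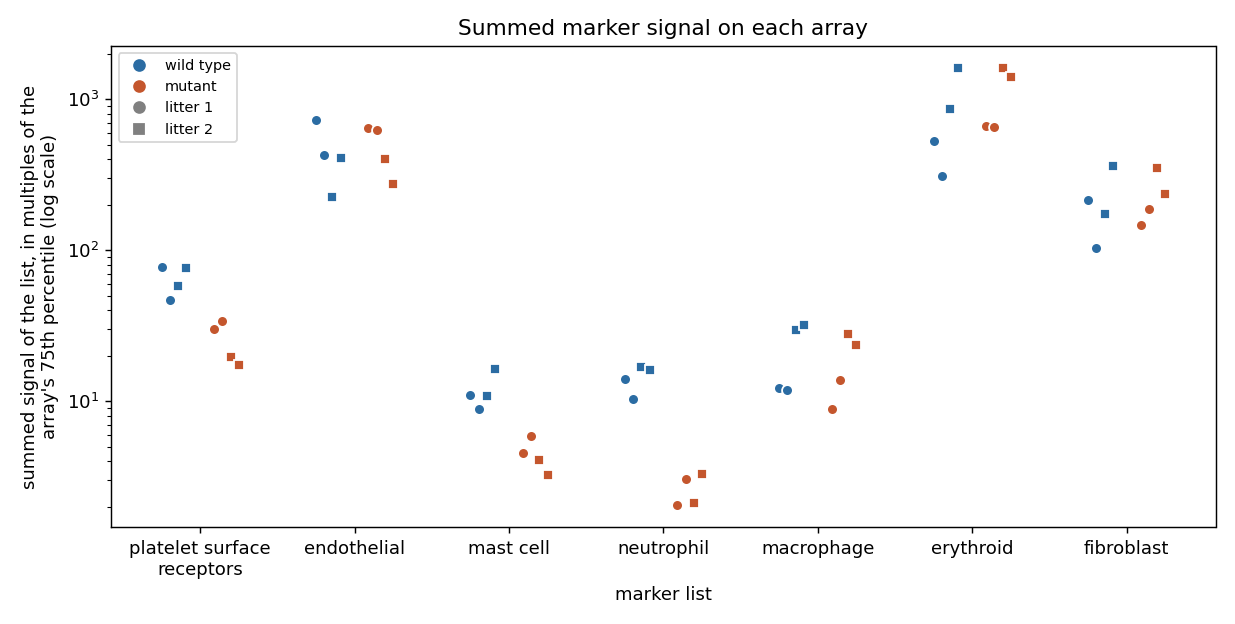
Summed signal of each marker list on each array, as multiples of the array's 75th percentile on a log axis, for wild types and mutants. Platelet receptors, mast cell markers and neutrophil markers do not overlap between the genotypes, and the other 4 lists do.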

How the data were processed

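The authors deposited scanner files for 8 one-colour arrays, 1 per embryo. Per the file headers, Agilent Feature Extraction 10.7.3.1 made background-subtracted, detrended intensity values with the mm9 annotation. A deposited table holds the authors' log2 values and their p-values. The submitters' processing notes name limma, without a version. Each column lies at log2 signal minus the array's median, and the table served as an alternative.

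Control and outlier spots were dropped. Log2 of the processed intensity was set relative to each array's 75th percentile. Of 55681 probes, 48110 were well above background on at least 4 arrays, and the brightest probe stood for each symbol (40234 features, 701 with a missing spot in some array). Probes were named through accession (26762), symbol or synonym (4444) or the file's own name (2044), and 22431 stayed unnamed.

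Genotype was tested with limma 3.58.1 in R 4.3.3 (eBayes, two-sided, no covariate) with Benjamini-Hochberg adjustment over all features, and checked on simulated data. Exact permutation tests were two-sided. The 7 genes and the lists were chosen with earlier results of these data known. Named genes are the 7, Gata2, up to 4 genes per list past the threshold or else the 2 brightest, and the 3 genes most like each of the 7, of which 1 gene is not reported here. Genes outside this rule are marked in the text, apart from the neighbours of Pf4, Vwf, Vps33b, Itgb3, Gata1, Nfe2 and Wdfy4, which were also picked after the values were seen. Arrays of a litter form a block per the labels. Sample numbers did not pair arrays, since same-numbered arrays correlated at 0.616, -0.03, -0.10 and -0.16 in their deviations.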

Additional observations from a re-analysis of the deposited data

Results flagged for a closer look

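Pf4 in wild type 2 stood far from the other wild types. Its log2 signal relative to the 75th percentile was 4.42, against 5.47 to 5.61 in the other 3 wild types. The gap to the nearest was 0.881 of the range of the group, above Dixon's 95% critical value for 4 samples. Of 14 groups (7 genes in 2 genotypes) this was the one past the value, and chance flags about 1 in 20. Without wild type 2 the Pf4 difference was -3.03 with adjusted p = 0.0924 in limma.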

How the results depend on the processing

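All 7 genes stayed lower in mutants under each of 20 alternatives. The number of features past the adjusted threshold of limma was 18, all lower. It was 1 with quantile normalization, 5 with normexp and quantile, and 8 without the background filter (46582 features). With probes well above background on all 8 arrays it was 27 (31038 features), with a floor 30 and with the authors' values 52 (40 lower, 12 higher). It was 0 with litter as a replicate block (1953 at an unadjusted p under 0.05) and 0 with the sample number as a replicate block (1387). Leaving out 1 array gave 0 to 24: 0 without wild type 1, 3 or 4 or mutant 1 or 3 (375 to 4018 unadjusted), 6 without wild type 2, 20 without mutant 2 and 24 without mutant 4. Without the 3 arrays highest on the first principal component, chosen after seeing the data, it was 0 (2208 unadjusted).

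With litter as a replicate block, no call on the 7 genes changed: adjusted p in limma was 0.0802 for Pf4, 0.0810 for Ppbp, 0.0782 for Plek and 0.136 for Tubb1. Pf4, Ppbp and Plek passed under 3 alternatives. With the authors' values the differences were -2.48, -3.03 and -2.20 (adjusted p 0.00619, 4.57e-05 and 0.0434 in limma). With probes well above background on all 8 arrays they were -2.75, -3.30 and -2.46 (0.0271, 0.0186 and 0.0280), and with a floor they were the same (0.0343, 0.0210 and 0.0406). Of all features, 52 of 36357 passed with the authors' values, 27 of 31038 with the filter on all 8 arrays and 30 of 40234 with the floor. Leaving out 1 array gave -3.03 to -2.47 for Pf4, -3.73 to -3.02 for Ppbp (adjusted p 0.0137 without mutant 2) and -2.67 to -2.19 for Plek. Over all alternatives adjusted p ran up to 0.786 for Pf4 and Ppbp and 0.855 for Plek. The cause was not tested. Thbs1, Srgn, Nbeal2 and Tubb1 did not pass in any alternative. Without the 3 arrays, 7 of the 7 genes did not overlap, against 15.3% of all features.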

Other observations

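In the authors' deposited table, which rests on 1 spread shared by all probes, 60 of 50120 probes (0.12%) had an adjusted p under 0.05. Ppbp had a log2 fold change of -3.03 with adjusted p = 7.25e-05 in the authors' deposited table. Pf4 was at -2.48 with adjusted p = 0.00904 in the authors' deposited table, and Plek at -2.20 with adjusted p = 0.0567. The authors' deposited table gives -1.61 for Tubb1, -1.05 for Srgn and -0.70 for Thbs1, each with adjusted p = 0.624. The Nbeal2 probes stand at -0.10 and 0.06 in the authors' deposited table. Its median shift is above that of the scaling to the 75th percentile, so each gene lies closer to 0 there.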
